A study of Mus musculus with 13 samples.

Results

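The collagen genes are the family whose protein chains wind into the helical fibres, networks and filaments of the extracellular matrix. They were taken as every gene symbol of the count matrix written as Col, a number, the letter a and a number, which gave 44 of 31053 genes. Their unique molecular identifier (UMI) counts, in which each identifier stands for 1 captured mRNA molecule, were followed across cell classes of mouse lung in a droplet single-cell RNA-seq matrix. The study compared whole lungs of C57BL/6 mice in 4 single-cell groups. The Asthma mice were sensitised to and challenged with ovalbumin. The PPE-emphysema mice had porcine pancreatic elastase (PPE) instilled into the trachea each week, and the Control mice were instilled on the same schedule, with an agent not given in the sources used here. The PPE-recovery mice had 1 instillation of elastase and were killed later. No allele or transgene is named for these groups, and their ages were not used here. By the study's description each group was 1 mouse, so a difference between groups would also be a difference between mice. The matrix numbers its barcodes by library, and neither the labels nor the matrix tie a library number to a group. The values are therefore given by library number (1, 2, 3 and 7), with no comparison of conditions and no p-value. The other samples of the series (Acute injury, Con and emphysema) are not in this matrix and were not used here.

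Libraries 1, 2, 3 and 7 held 24344 barcodes, of which 20856 had at most 10% mitochondrial UMIs. The kept barcodes numbered 4800, 7626, 5129 and 3301 in the 4 libraries, with a median of 7542.5 UMIs each. Between 3 and 15 barcode sequences were shared by any pair of libraries. Clustering without the collagen genes, and naming from marker genes, placed 19278 cells in 29 classes, each called "-like" after its markers. Another 982 cells stayed unnamed, and 596 cells in 6 clusters carried defining genes of more than 1 compartment and were set aside. Levels are UMIs of a gene per 1000000 UMIs of the class (CPM), with exact 95% Poisson intervals that cover counting error only, not the spread between mice. The assay counts 3′ tags, so a level carries no term for gene length, but capture can still differ between genes.

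Fibrillar collagens such as types I, III and V form the tensile fibres of the interstitium. Network-forming type IV chains build the basement membranes under alveolar epithelium and around capillaries, which fuse at the gas-exchange surface. Smaller types decorate, anchor or link these structures, and a few are transmembrane proteins. In lung, fibroblasts are the main known source of fibrillar chains, while epithelium and endothelium also make basement membrane.

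Collagen mRNA was concentrated in the mesenchymal classes. The 1775 mesenchymal cells held 83.2% of the collagen UMIs of the named cells and 10.7% of all their UMIs. Endothelial cells held 12.3% of the collagen UMIs, epithelial cells 2.11% and immune cells 2.43%. The summed collagen level was 11540 CPM in mesenchymal, 1661 CPM in endothelial, 439.7 CPM in epithelial and 50.3 CPM in immune cells. By class and with libraries pooled, adventitial fibroblast-like cells were highest at 17310.2 CPM (95% interval 17139 to 17482, 209 cells). Alveolar fibroblast-like cells followed at 11720.2 CPM (1237 cells), then smooth muscle cell-like cells at 7187 CPM, mesothelial cell-like cells at 5917 CPM and pericyte-like cells at 5611 CPM. The lowest of these 5, pericyte-like cells, stood above the highest endothelial class, general capillary endothelial cell-like cells at 1911 CPM. The intervals of the mesothelial and pericyte-like classes overlapped (mesothelial lower bound 5752 and pericyte-like upper bound 5853 CPM). Adventitial fibroblast-like cells could be read only in libraries 2 and 3, at 17480 and 16348 CPM. Alveolar fibroblast-like cells had 11032 and 11114 CPM in those libraries. In library 1 the alveolar class stood at 19249.6 CPM, above both adventitial values.

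**Figure D1:**
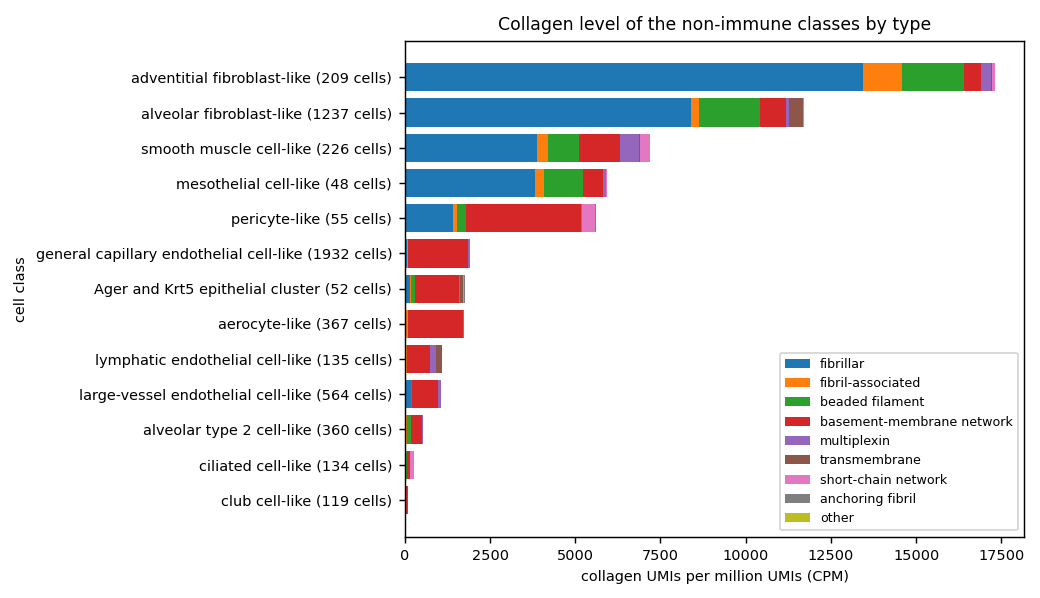
Summed collagen level (UMIs per 1000000 UMIs, CPM) of the 13 non-immune classes, with libraries 1, 2, 3 and 7 pooled and bars split by collagen type. The bars run from 91.9 CPM in club cell-like cells to 17310.2 CPM in adventitial fibroblast-like cells, and the basement-membrane share is largest in general capillary and aerocyte-like cells.

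Fibrillar chains made up 59.9% of the collagen UMIs of all kept cells, basement-membrane network chains 19.3% and beaded-filament (type VI) chains 12.5%. The mix changed with class. Fibrillar chains gave 77.7% of the collagen UMIs of adventitial fibroblast-like cells, 71.5% of alveolar fibroblast-like cells, 54.1% of smooth muscle cell-like cells and 25% of pericyte-like cells. Type IV chains gave 59.9% in pericyte-like cells, 92.6% in general capillary endothelial cell-like cells and 91.8% in aerocyte-like cells, the capillary cells specialised for gas exchange. They gave 2.92% in adventitial fibroblast-like cells.

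A gene was called for a compartment where its level was at least 4-fold above that in each of the other 3, among genes with at least 20 UMIs in the named cells. Of the 36 collagen genes that passed this limit, 22 were called mesenchymal, against 6.22% of all 17081 genes so tested. No collagen gene was called endothelial (3.71% of all genes), 1 was called epithelial (Col4a3, 7.32% of all genes) and 1 immune (Col11a2, 7.96% of all genes). The mesenchymal calls took in 9 of 10 tested fibrillar genes, 5 of 5 tested type VI genes and 3 of 5 tested fibril-associated genes, but only 2 of 6 type IV genes, Col4a5 and Col4a6. The remaining 12 were not 4-fold above every other compartment, among them Col4a1, Col4a2, Col15a1 and Col18a1. The limit of 20 UMIs removed 8 of the 44 genes, so these counts do not describe all members. The number called mesenchymal lay between 18 and 25 under the settings tried.

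Type III and type I chains led the family. Col3a1, the chain of type III collagen in reticular fibres, reached 5495 CPM (95% interval 5399 to 5592) in adventitial fibroblast-like cells and 3236 CPM (95% interval 3207 to 3266) in alveolar fibroblast-like cells. The first level was 1.7 times (95% interval 1.66 to 1.73) the second. In adventitial fibroblast-like cells Col3a1 stood at 5881 and 4815 CPM in libraries 2 and 3, the only libraries with at least 20 such cells, and in alveolar fibroblast-like cells at 5881, 3086, 2938 and 3360.5 CPM in libraries 1, 2, 3 and 7. The adventitial value was thus above the alveolar one in both libraries where the classes could be set side by side. Mesothelial and smooth muscle cell-like cells had 1863 and 1839 CPM, with overlapping intervals, and pericyte-like cells had 396 CPM.

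Col1a2 and Col1a1, the chains of type I collagen, kept the same leading classes. Col1a2 was at 4129.6 CPM (95% interval 4046 to 4214) in adventitial and 2557 CPM (95% interval 2531 to 2583) in alveolar fibroblast-like cells. Col1a1 was at 2882 and 1856 CPM there. The adventitial class was read in libraries 2 and 3 only, with 2780 and 2862 CPM of Col1a1. The alveolar values of Col1a1 in libraries 1 and 7, given below, lay above both. Outside the mesenchyme the summed compartment level of Col1a1 was 7.49 CPM in endothelial, 7.33 CPM in epithelial and 2.51 CPM in immune cells, so that the mesenchymal level (1771 CPM) stood 236-fold above the next compartment. For Col1a2 this factor was 247 and for Col3a1 it was 153. T cell-like and B cell-like cells, which do not make type III collagen, carried 7.86 and 6.68 CPM of Col3a1. This background differed by library: the T cell-like cells showed 0.734, 20.6, 7.37 and 0.69 CPM in libraries 1, 2, 3 and 7, highest in library 2, which also held the most mesenchymal cells. Levels of a few CPM outside the mesenchyme were at or near this background.

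With each cell thinned to 1000 UMIs, a Col3a1 UMI was left in 90.7% of 204 cells of the adventitial and 82% of 1236 cells of the alveolar fibroblast-like class, against 0.535% of 1309 cells of the T cell-like class. Before thinning the shares were 98.6%, 99.4% and 3.75%, at median depths of 11020, 11284 and 5732 UMIs.

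The type V chains, which nucleate and limit the width of fibrils, did not all follow type I from class to class. Col5a2 was nearly level in the fibroblasts, with 478 CPM (95% interval 449.9 to 507) in adventitial and 449 CPM (95% interval 438 to 459.9) in alveolar cells, intervals that overlapped. Col5a1 was 2.16 times (95% interval 2 to 2.34) as high in adventitial (376 CPM) as in alveolar fibroblast-like cells (174 CPM). Col5a3 showed a like ratio, 2.14 times (95% interval 1.73 to 2.63), at 54.7 and 25.5 CPM, but the log2 ratio fell from 1.10 to 0.39 without library 2. Col5a2 was also present in large-vessel endothelial cell-like cells at 95.3 CPM (95% interval 85.9 to 105), where Col5a1 was at 11.4 CPM. The large-vessel value stood at 163, 74.7, 80.8 and 125 CPM in libraries 1, 2, 3 and 7, above the general capillary class in each library (26.7, 19.7, 27.2 and 20.1 CPM in libraries 1, 2, 3 and 7).

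Col27a1, a fibrillar chain best known from cartilage, was spread over mesenchymal classes rather than led by adventitial cells. It was at 82 CPM (95% interval 77.4 to 86.8) in alveolar fibroblast-like cells, 80.9 CPM in pericyte-like cells, 63.7 CPM in smooth muscle cell-like cells and 26.5 CPM in adventitial fibroblast-like cells. The alveolar and pericyte-like levels could not be told apart at this depth (ratio 1.01, 95% interval 0.711 to 1.5). Col11a2, a chain of the cartilage fibrils of type XI, was the fibrillar gene outside this pattern. Its 461 UMIs fell in 426 cells, mostly at 1 UMI a cell, and its compartment level was 3.05 CPM in immune against 0.648 CPM in mesenchymal cells. Its highest class, basophil or mast cell-like cells, rested on 7 UMIs. Col11a2 was no longer called immune when library 3 was left out.

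Among the fibril-associated collagens, which sit on the surface of fibrils, Col14a1 set the fibroblast classes apart. It reached 1016 CPM (95% interval 975 to 1059) in adventitial fibroblast-like cells against 104 CPM (95% interval 99.3 to 109.8) in alveolar fibroblast-like cells, 198 CPM in mesothelial cell-like cells and 141 CPM in smooth muscle cell-like cells. The adventitial level was 5.12 times (95% interval 4.37 to 6.04) the mesothelial one, and it was nearly equal in the libraries that could be read (1021 and 1028 CPM in libraries 2 and 3). The log2 ratio to mesothelial cells was 2.36, with a range from 0.84 under the tighter cell filter to 3.14 without library 3. A Col14a1 UMI remained in 61.3% of 204 cells of the adventitial class after thinning and in 6.47% of 1236 cells of the alveolar class (94.3% and 40.4% before thinning). Col12a1, found in tissues under tension, led in smooth muscle cell-like cells at 89.4 CPM (95% interval 76.8 to 103). That lead rested on library 2. The smooth muscle values were 116 and 21.7 CPM in libraries 2 and 3, while alveolar fibroblast-like cells had 58.7, 42.9, 54 and 56.4 CPM in libraries 1, 2, 3 and 7. Aerocyte-like cells had 41.7 CPM of Col12a1 against 4.97 CPM in general capillary cells, and by library the aerocyte values ran 85.6, 25.5, 70.5 and 4.81 CPM in libraries 1, 2, 3 and 7. Col16a1 was even across the mesenchyme, from 71.8 CPM in mesothelial to 93.9 CPM in pericyte-like cells. Col20a1, with 203 UMIs in all, reached at most 4.41 CPM in any class.

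Type VI collagen forms beaded microfilaments beside the basement membrane, each unit built of the α1, α2 and α3 chains. Col6a1 was at 804 CPM (95% interval 768 to 842) in adventitial and 755 CPM (95% interval 741 to 769) in alveolar fibroblast-like cells, and Col6a2 at 558 and 448 CPM. Col6a3 had the opposite order, 588 CPM (95% interval 575 to 600.5) in alveolar and 435 CPM (95% interval 408 to 463) in adventitial cells. This order was not stable: it turned under 4 alternatives (a tighter cell filter, no alignment of libraries, collagen genes kept in the clustering and a finer clustering), where the log2 ratio of alveolar to adventitial cells lay between -0.14 and -0.11. Mesothelial cell-like cells carried Col6a1 (595 CPM) and Col6a2 (428 CPM) with little Col6a3 (76.7 CPM). Smooth muscle cell-like cells showed the reverse balance, with 418 CPM of Col6a3 and 286 CPM of Col6a1. Alveolar type 2 cell-like cells, the surfactant-secreting epithelium, had Col6a1 at 95.8 CPM (95% interval 88.5 to 104) with Col6a2 at 16.2 and Col6a3 at 3.45 CPM. The epithelial Col6a1 value was 105, 103, 77.1 and 115 CPM in libraries 1, 2, 3 and 7, and Col3a1 in the same cells was 0, 37.7, 5.41 and 2.8 CPM in libraries 1, 2, 3 and 7. The part of background in the Col6a1 value was not tested. The remaining type VI chains were rare: Col6a6 had 61 UMIs, Col6a5 had 34 and Col6a4 had 10.

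**Figure D2:**
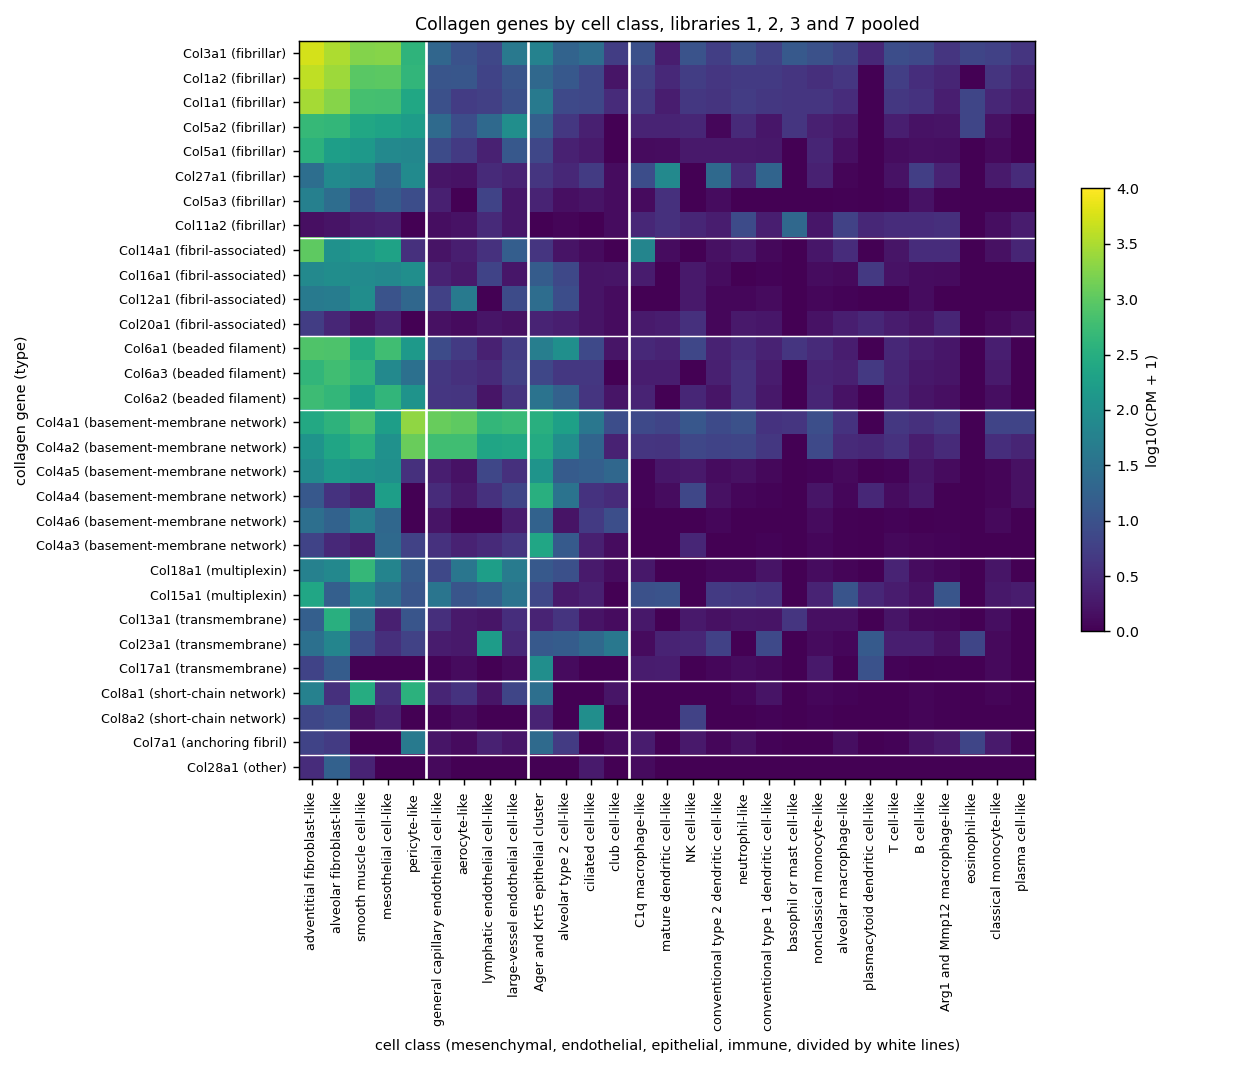
Level of the 30 collagen genes with at least 100 UMIs (rows, grouped by type) in 29 cell classes (columns), as log10(CPM + 1) with libraries 1, 2, 3 and 7 pooled. Fibrillar and type VI rows are bright in the mesenchymal columns, Col4a1 and Col4a2 run on through the endothelial columns, and isolated bright squares mark Col13a1 in alveolar fibroblast-like (327 CPM), Col14a1 in C1q macrophage-like (64.6 CPM) and Col8a2 in ciliated cell-like cells (93.1 CPM).

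The 6 type IV genes lie in the mouse genome as 3 neighbouring pairs that point away from each other. Their starts are shown because partner chains of a pair are used together in 1 basement-membrane network. Positions are gene starts of the GENCODE annotation, and bases were read from RefSeq promoter windows of GRCm38.p6, which held 35 of the 44 genes. The annotated first bases of Col4a1, on the minus strand of chromosome 8, and Col4a2, on the plus strand, overlap by 22 bases. Col4a4 (minus strand, chromosome 1) and Col4a3 (plus strand) are separated by 71 bases. Col4a6 and Col4a5 on the X chromosome start 1308 bases apart. The shared stretches are given on the plus strand, with capitals marking GGGCGG, the box that binds Sp1-type factors.
Col4a1/Col4a2, chr8:11312805-11312826: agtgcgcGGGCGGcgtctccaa
Col4a4/Col4a3, chr1:82586850-82586920: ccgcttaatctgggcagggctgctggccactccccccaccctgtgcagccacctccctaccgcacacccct
The first lies in the first exon of both genes and holds the marked box. The second, between the genes, holds none of the 3 motifs searched on either strand. Those motifs were GGGCGG, the TATA box (TATAAA) and the CCAAT box. Among the 250 bases before the start, GGGCGG on either strand occurred in 22 of 38 collagen windows (57.9%) and in 32.7% of 32851 windows of all genes. CCAAT occurred in 34.2% and 33.8%, and TATAAA in 13.2% and 12.4%. These are matches of letters, not sites.

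Col4a1 and Col4a2, the ubiquitous chains of basement membrane, were the collagen genes of the vasculature. Col4a1 was highest in pericyte-like cells at 2155 CPM (95% interval 2010.1 to 2307), followed by general capillary endothelial cell-like cells at 1182 CPM (95% interval 1162 to 1202) and aerocyte-like cells at 1003 CPM (95% interval 970.3 to 1037). Smooth muscle cell-like cells had 682 CPM, large-vessel endothelial cell-like cells 508 CPM, lymphatic endothelial cell-like cells 443 CPM and alveolar fibroblast-like cells 383 CPM. Col4a2 followed the same classes, with 1199.9 CPM (95% interval 1093 to 1315) in pericyte-like, 598 CPM in aerocyte-like and 582 CPM in general capillary cells. The pericyte-like class held 55 cells, of which 41.8% carried a UMI of Cdh5, the endothelial cadherin, against 5.4% to 7.71% in the clusters of alveolar fibroblast-like cells. The part of these UMIs in the pericyte-like value was not tested. In library 2, the only one with at least 20 pericyte-like cells (29), Col4a1 stood at 2273 CPM in them and 1094 CPM in general capillary cells.

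Thinned to 1000 UMIs a cell, Col4a1 was seen in 84.3% of 51 cells of the pericyte-like, 62.7% of 1922 cells of the general capillary and 16.9% of 360 cells of the alveolar type 2-like class, against 0.0764% of 1309 cells of the T cell-like class. The unthinned shares were 96.4%, 94.7%, 89.4% and 1.65%. Alveolar type 2 cell-like cells thus carried Col4a1 (183 CPM, 95% interval 173 to 194) and Col4a2 (94.3 CPM) far above the lymphocyte background of 3.53 CPM. Club cell-like cells, the secretory cells of the airway, had 7.78 CPM of Col4a1.

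The α3, α4 and α5 chains form a separate network in the mature basement membrane of alveoli and glomeruli. Col4a3 and Col4a4, the α3 and α4 chains, were highest in an epithelial cluster of 52 cells marked by Ager, a gene of alveolar type 1 cells, and by Krt5, a keratin of basal cells. Col4a4 was at 335 CPM (95% interval 292 to 383) there and Col4a3 at 234 CPM (95% interval 198 to 274). The next class for Col4a4 was mesothelial cell-like cells at 175 CPM (95% interval 148 to 206), where Col4a3 was at 21.9 CPM. Alveolar type 2 cell-like cells had 31.9 CPM of Col4a4 and 12.7 CPM of Col4a3, with Col4a4 at 45.9, 25.6, 32.9 and 33.6 CPM in libraries 1, 2, 3 and 7. Because the cluster joined cells of different markers, it was split by a Krt5 UMI after its values were seen. The 38 cells without Krt5, of which 35 had an Ager UMI, carried 346 CPM of Col4a3 (95% interval 293 to 406) and 493 CPM of Col4a4. The 14 cells with Krt5, none with an Ager UMI, carried 4.67 and 14 CPM. Col17a1, the transmembrane collagen of hemidesmosomes, had the opposite distribution, 271 CPM (95% interval 206 to 350.0) in the cells with Krt5 and 4.59 CPM in those without. Col7a1, the anchoring fibril that ties the basement membrane to the stroma below, was at 51.3 and 9.17 CPM in the cells with and without Krt5. The highest class for Col7a1 was pericyte-like cells at 41.7 CPM (95% interval 23.9 to 67.8), against 23.1 CPM in the undivided cluster, with overlapping intervals. Without library 3 the log2 ratio of the cluster to mesothelial cell-like cells rose from 3.42 to 4.63 for Col4a3 and from 0.94 to 1.73 for Col4a4. The cells of the cluster came from all libraries and no library held 20 of them, so no value by library was set against another.

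Col4a5 and Col4a6 were called mesenchymal by compartment, but Col4a5 was also high in 1 epithelial cluster. Col4a5 was at 142 CPM (95% interval 136 to 148) in alveolar fibroblast-like cells and 115 CPM (95% interval 90.7 to 145) in the cluster marked by Ager and Krt5, levels whose ratio of 1.23 (95% interval 0.979 to 1.57) did not exclude 1. Split as above, the cluster had 142 CPM of Col4a5 (95% interval 109 to 182) in the 38 cells without Krt5. The 14 cells with Krt5 had 60.7 CPM (95% interval 32.3 to 104). By library the alveolar fibroblast-like cells had 152, 147, 122 and 166 CPM in libraries 1, 2, 3 and 7. Col4a6 was highest in smooth muscle cell-like cells at 50.4 CPM (95% interval 41.1 to 61.1), with 27.8 CPM in adventitial and 17.2 CPM in alveolar fibroblast-like cells. The smooth muscle lead of Col4a6 turned at a mitochondrial limit of 5% (log2 ratio -0.43) and when libraries were weighted equally (-0.26).

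The multiplexins Col18a1 and Col15a1 lie at the outer face of basement membranes, and Col18a1 is the source of the fragment endostatin. Col18a1 was highest in smooth muscle cell-like cells at 468 CPM (95% interval 439 to 499), 2.71 times (95% interval 2.36 to 3.12) the level of lymphatic endothelial cell-like cells (173 CPM). Alveolar fibroblast-like cells had 73.6 CPM, large-vessel endothelial cell-like cells 44.5 CPM and general capillary cells 6.26 CPM. Col15a1 was highest in adventitial fibroblast-like cells at 231 CPM (95% interval 211 to 251), with 70.6 CPM in smooth muscle cell-like cells, the next class. By library it was 213 and 223 CPM in libraries 2 and 3 in adventitial and 52.7 and 181 CPM in libraries 2 and 3 in smooth muscle cell-like cells, with overlapping intervals in library 3. The log2 ratio of these classes was 1.71, and fell to between 0.24 and 0.31 under the 4 alternatives that turned Col6a3. Alveolar fibroblast-like cells had 50.9, 5.97, 34.6 and 3.42 CPM in libraries 1, 2, 3 and 7, and 15.2 CPM pooled, a value weighted by the 824 cells of library 2. Col15a1 was at 34.7 CPM in general capillary and 32 CPM in large-vessel endothelial cell-like cells.

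Among transmembrane collagens, Col13a1 was highest in alveolar fibroblast-like cells. Its level there was 327 CPM (95% interval 318 to 336), 14.1 times (95% interval 10.6 to 19.2) that of smooth muscle cell-like cells and against 15.4 CPM in adventitial fibroblast-like cells. It stood at 269, 323, 355 and 315 CPM in libraries 1, 2, 3 and 7, where the interval of library 7 overlapped each of the others and those of libraries 1 and 3 did not overlap. Thinned, a Col13a1 UMI was present in 29.4% of 1236 cells of the alveolar and 0.98% of 204 cells of the adventitial class (89.1% and 8.13% unthinned). Col23a1 led in lymphatic endothelial cell-like cells at 159 CPM (95% interval 139.9 to 181), above alveolar fibroblast-like (65.9 CPM), club cell-like (38.9 CPM) and adventitial cells (28.7 CPM). The other endothelial classes held at most 1.78 CPM of it.

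The short-chain network collagens of type VIII were highest in different classes. Col8a1, known from vessel walls, was at 365 CPM (95% interval 307 to 431) in pericyte-like and 294 CPM (95% interval 271 to 318) in smooth muscle cell-like cells, with 55.5 CPM in adventitial and 2.54 CPM in alveolar fibroblast-like cells. Col8a2 was at 93.1 CPM (95% interval 82.8 to 104) in ciliated cell-like cells, 11.5 times (95% interval 9.25 to 14.3) the level of alveolar fibroblast-like cells. It held in each library with at least 20 ciliated cell-like cells, at 81, 101 and 116 CPM in libraries 2, 3 and 7, and thinned it was seen in 12.8% of 133 cells of that class and in none of 105 club cell-like cells. This limits the share of such cells with a UMI at that depth to 3.45%, not the share that express the gene. The unthinned share in ciliated cell-like cells was 79.9%. Col28a1, a von Willebrand factor A domain collagen, was at 16.6 CPM (95% interval 14.6 to 18.9) in alveolar fibroblast-like cells against 2.2 CPM in adventitial ones, but this order turned under the same 4 alternatives as for Col6a3 (log2 ratio -1.91 to -1.67). Within the alveolar fibroblast-like class its level was 32.4, 16.4 and 1.54 CPM in the clusters led by Clec11a, Il6 and Slc7a10.

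These 3 clusters of alveolar fibroblast-like cells differed in overall collagen. The largest (593 cells), led by Slc7a10, Cdo1 and Tcf21, held 7852 CPM of collagen. The second (428 cells), led by Clec11a and Mgp, held 15182 CPM. The smallest (216 cells), led by the stress and inflammatory genes Il6 and Cxcl1, held 12725 CPM. Col3a1 was 1719.5, 4549 and 3713 CPM in that order, and Col14a1 23.7, 168 and 142 CPM. Col13a1 and Col23a1 ran the other way, with 442, 224 and 297 CPM for Col13a1 and 96, 45.3 and 46.5 CPM for Col23a1. Col4a1 was even at 379, 388 and 383 CPM. Col1a1, Col3a1 and Col1a2 were themselves among the 10 leading genes of the second cluster, although no collagen gene was used to form it, so these levels are a description. The clusters led by Clec11a and Il6 had no marker of the class among their 10 leading genes, against 4 in the cluster led by Slc7a10. They were named from the mean score of the class markers, of which 6 and 7 were detected.

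A few collagen genes were higher in some immune classes than in T cell-like cells. Col14a1 was at 64.6 CPM (95% interval 59.7 to 69.9) in C1q macrophage-like cells, against 2.21 CPM in alveolar macrophage-like and 2.26 CPM in Arg1 and Mmp12 macrophage-like cells. It stood at 56.9, 66, 107 and 44.6 CPM in libraries 1, 2, 3 and 7, while Col3a1 in the same cells was 3.74, 17.4, 8.7 and 3.64 CPM. In adventitial fibroblast-like cells, the class richest in Col14a1, Col3a1 was 5495 CPM to 1016 CPM of Col14a1. The part of background in the Col14a1 value of the macrophages was not tested. The 633 Col14a1 UMIs of the macrophages lay in 281 of 845 cells. Col27a1 was at 76.1 CPM (95% interval 66 to 87.3) in mature dendritic cell-like cells, with 59.4, 122, 89.5 and 64.9 CPM in the 4 libraries, 22.2 CPM in conventional type 2 dendritic cell-like cells and 0.569 CPM in T cell-like cells. The 10 mature dendritic cell-like cells with the most held 33.8% of its 204 UMIs. Col15a1 was lower, 10.3 CPM (95% interval 8.95 to 11.8) in Arg1 and Mmp12 macrophage-like and 9.82 CPM in alveolar macrophage-like cells, against 1.03 CPM in T cell-like cells.

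Within alveolar fibroblast-like cells, 17 collagen genes reached 50 CPM, and 1 of them was at least 2-fold apart from every other library in a given library, against 2.99% of 3148 genes. This was Col14a1, lower in library 7 (0.826% of genes in that direction), with 30.8 CPM (95% interval 18.2 to 48.7) there and 114, 89.1 and 159 CPM in libraries 1, 2 and 3. The library 7 value rested on 18 UMIs in 46 cells. Some fibrillar chains fell into a different pattern that this rule does not catch. Col1a1 stood at 3133, 1715, 1704 and 3109 CPM in libraries 1, 2, 3 and 7. The values of Col1a2 were 4041, 2465, 2225 and 3711 CPM in libraries 1, 2, 3 and 7, and those of Col5a2 were 802, 441, 323 and 764 CPM in libraries 1, 2, 3 and 7. For each of these 3 genes libraries 1 and 7 lay above libraries 2 and 3, and the intervals of the former did not overlap those of the latter. These genes were picked after their values were seen, and the share of all genes with the same pattern was not counted. The pattern is thus a description, and its intervals cover counting error only. Col3a1 was highest in library 1 at 5881 CPM (95% interval 5724 to 6041), with 3360.5 CPM (95% interval 3214 to 3512) in library 7. Col27a1, also fibrillar, did not follow the pattern, at 134, 72.1, 98.4 and 71.8 CPM in libraries 1, 2, 3 and 7. Summed collagen was 19249.6, 11032, 11114 and 14996 CPM.

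The alveolar fibroblast-like cells numbered 71, 824, 296 and 46 in libraries 1, 2, 3 and 7, with median depths of 12690, 11306, 10902 and 12201 UMIs and median mitochondrial shares of 5.47%, 4.86%, 4.49% and 4.2%. The part of these in the collagen levels was not tested. The makeup of the class also moved: the cluster led by Clec11a and Mgp was 50.7% of the class in library 1, 35.2% in library 2, 28.4% in library 3 and 39.1% in library 7. Within that cluster Col1a1 was 4135 CPM in library 1 against 2362 and 1989 CPM in libraries 2 and 3. No value is given there for library 7. Within the cluster led by Slc7a10 Col1a1 was 1068, 1104, 984 and 1070.2 CPM in libraries 1, 2, 3 and 7. Libraries 1 and 7 were not set apart there. The part of the makeup in the collagen levels was not tested.

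**Figure D3:**
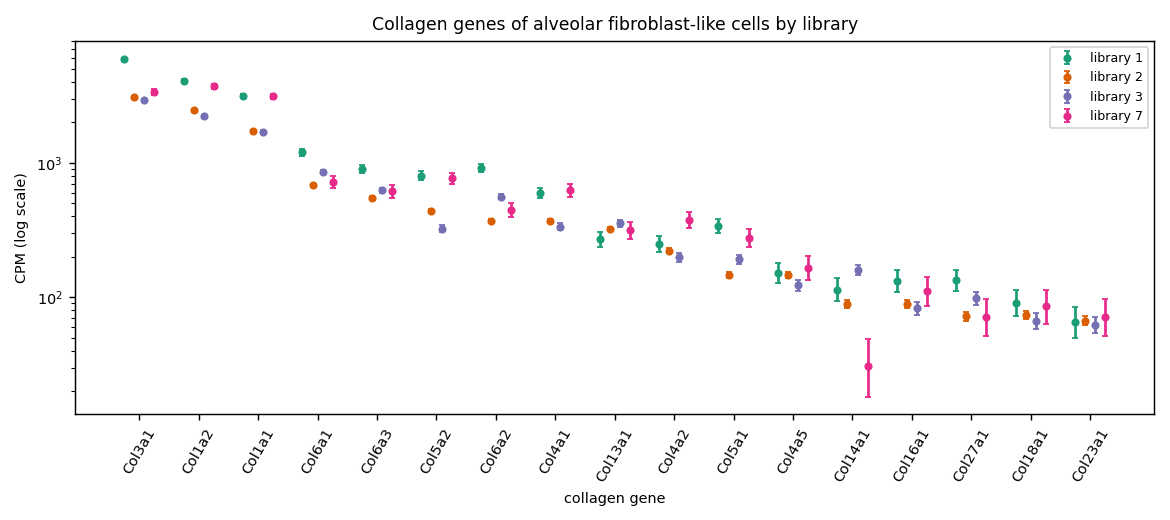
Level of 17 collagen genes (CPM, log scale) in alveolar fibroblast-like cells of libraries 1, 2, 3 and 7, with points for pooled UMIs and bars for exact 95% Poisson intervals. Libraries 1 and 7 lie above 2 and 3 for Col1a1 and Col1a2, Col13a1 and Col23a1 stay close together, and library 7 is lowest for Col14a1.

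Adventitial fibroblast-like cells could be read in libraries 2 and 3 (100 cells each), and 0 of 17 collagen genes of 50 CPM differed 2-fold between them (2.73% of 3109 genes did). Smooth muscle cell-like cells (164 and 36 cells in libraries 2 and 3) gave 3 of 19 (6.46% of all 3390 genes). Col8a1 was at 366 CPM (95% interval 335 to 398) in library 2 and 108 CPM (95% interval 73.2 to 155) in library 3, and Col12a1 at 116 CPM (95% interval 98.9 to 135) and 21.7 CPM (95% interval 7.96 to 47.2) (4.87% of genes were 2-fold higher in library 2). Col15a1 was at 52.7 CPM (95% interval 41.6 to 65.9) in library 2 and 181 CPM (95% interval 134 to 238) in library 3 (1.59% in that direction).

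Col4a1 differed between libraries in 1 order in the 5 classes with at least 50 CPM of it and at least 20 cells in each of the 4 libraries. Its level in general capillary endothelial cell-like cells was at 1463, 1094, 721 and 2137 CPM in libraries 1, 2, 3 and 7, in aerocyte-like cells at 1349.9, 971, 808 and 1695 CPM in libraries 1, 2, 3 and 7 and in large-vessel endothelial cell-like cells at 625, 503, 333 and 771 CPM in libraries 1, 2, 3 and 7. Alveolar fibroblast-like cells had 593, 366, 335 and 623 CPM in libraries 1, 2, 3 and 7 and alveolar type 2 cell-like cells 221, 185, 149 and 231 CPM in libraries 1, 2, 3 and 7. Ciliated cell-like cells, read in 3 libraries at a lower level, had 42, 33.4 and 29.9 CPM in libraries 2, 3 and 7, lowest in library 7. In each of the 5 classes the order from high to low was library 7, 1, 2 and 3, and the highest value was 2.97, 2.1, 2.31, 1.86 and 1.55 times the lowest. Libraries 7 and 1 were not set apart in every class. In large-vessel cells their intervals overlapped (667 to 887 and 569 to 686 CPM). In alveolar type 2-like cells the library 7 value lay within the library 1 interval (193 to 253 CPM). This order was noticed in the values and then counted, so it is a description. Among 1647 genes at 50 CPM or more in all 5 classes, 0.182% had it in all 5, 3 genes with Col4a1 among them. Col4a2 did not keep the order in large-vessel cells, where library 2 stood above library 1, but had library 7 highest and library 3 lowest in all 5 classes, as did 0.729% of the genes, with 606, 582, 377 and 1046 CPM in libraries 1, 2, 3 and 7 in general capillary and 655, 585, 491 and 1127 CPM in libraries 1, 2, 3 and 7 in aerocyte-like cells.

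Only collagen genes at 50 CPM or more in a class were tested for a 2-fold distance from all other libraries. None had it in general capillary (2 tested, 1.83% of genes), aerocyte-like (2 tested, 4.74%), large-vessel (3 tested, 2.94%) or alveolar type 2-like cells (3 tested, 2.18%). Below that limit, Col18a1 in aerocyte-like cells was at 65.9, 28.5, 4.27 and 212 CPM in libraries 1, 2, 3 and 7. Col3a1 in large-vessel cells, also below it, was at 13.9, 38.3, 39.1 and 149 CPM in libraries 1, 2, 3 and 7. Within the 2 largest general capillary clusters the Col4a1 order held. The cluster led by Sox11 and Kit had 1386, 902, 694 and 1586 CPM in libraries 1, 2, 3 and 7. The cluster led by Ntrk2 had 1919, 1292, 895 and 2352 CPM. The general capillary cells numbered 348, 994, 444 and 146 in these libraries, at median depths of 6228, 4906, 4748 and 5207 UMIs. By depth the libraries thus ran 1, 7, 2 and 3, and the part of depth in the Col4a1 order was not tested. Whether the order goes with the study's groups cannot be told from the numbers of the libraries.

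**Figure D4:**
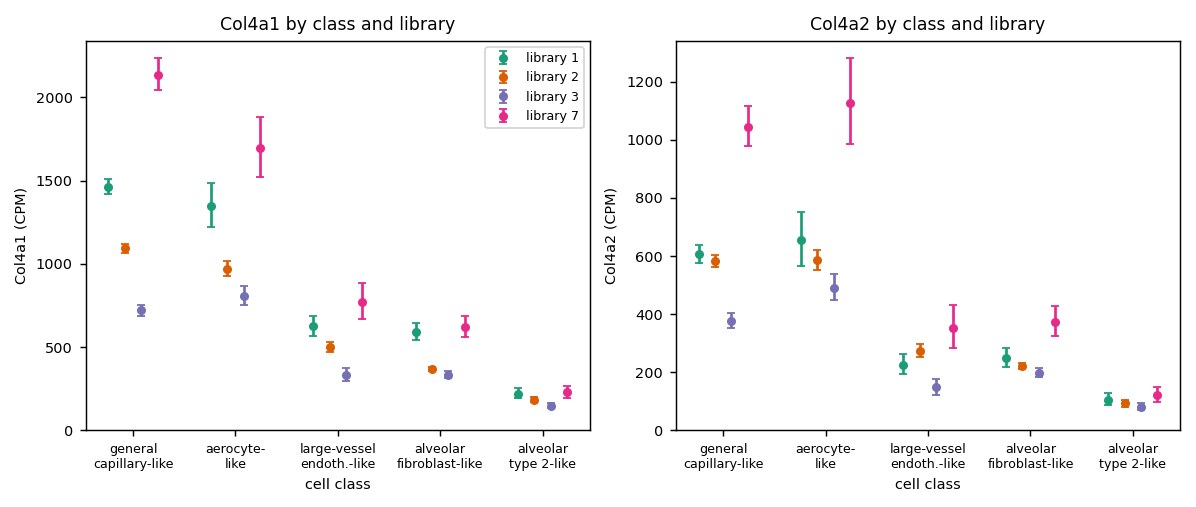
Col4a1 (left) and Col4a2 (right) in 5 cell classes by library, in CPM with exact 95% Poisson intervals. Library 7 is highest and library 3 lowest in every class, from 2137 against 721 CPM of Col4a1 in general capillary cells to 231 against 149 CPM in alveolar type 2-like cells.

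Chains of the same collagen type, and Col3a1 with Col1a2 of different types, were compared as ratios of UMIs within a class. Depth does not move such ratios, though unequal capture of the 2 mRNAs can set their absolute value. Col1a1 to Col1a2 was 0.726 (95% interval 0.715 to 0.737) in alveolar fibroblast-like, 0.698 (95% interval 0.676 to 0.72) in adventitial fibroblast-like and 0.702 (95% interval 0.654 to 0.753) in smooth muscle cell-like cells. The type I ratio varied little over classes whose Col1a1 level differed from 660.0 to 2882 CPM. By library it was 0.775, 0.696, 0.766 and 0.838 in alveolar fibroblast-like cells of libraries 1, 2, 3 and 7. Col3a1 to Col1a2 was less even, at 1.27 (95% interval 1.25 to 1.28) in alveolar and 1.96 (95% interval 1.85 to 2.07) in smooth muscle cell-like cells.

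Col4a1 to Col4a2 was 2.03 (95% interval 1.97 to 2.09) in general capillary, 1.68 (95% interval 1.59 to 1.77) in aerocyte-like, 1.8 (95% interval 1.6 to 2.02) in pericyte-like and 1.94 (95% interval 1.76 to 2.14) in alveolar type 2-like cells. In the cluster marked by Ager and Krt5 it was 1.22 (95% interval 0.995 to 1.49). Library 1 had the highest ratio in general capillary, aerocyte-like, large-vessel and alveolar fibroblast-like cells (2.41, 2.06, 2.76 and 2.37), and the other libraries ranged from 1.5 to 2.24. Col4a4 to Col4a3 was 1.43 (95% interval 1.16 to 1.78) in that epithelial cluster, 2.51 (95% interval 1.94 to 3.26) in alveolar type 2-like and 8 (95% interval 4.89 to 13.9) in mesothelial cell-like cells, which had little Col4a3. Col4a5 to Col4a6 was 8.28 (95% interval 7.26 to 9.48) in alveolar fibroblast-like and 2.25 (95% interval 1.78 to 2.88) in smooth muscle cell-like cells.

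Type VI ratios also varied with class. Over the classes read, Col6a1 to Col6a2 ran from 0.8125 to 5.92, and Col4a1 to Col4a2 from 0.824 to 5.5. Col6a1 to Col6a2 was 1.69 (95% interval 1.64 to 1.74) in alveolar fibroblast-like, 1.44 (95% interval 1.34 to 1.55) in adventitial fibroblast-like and 5.92 (95% interval 4.82 to 7.32) in alveolar type 2-like cells. Col6a1 to Col6a3 spanned 0.686 (95% interval 0.616 to 0.763) in smooth muscle cell-like to 27.8 (95% interval 18.4 to 44.1) in alveolar type 2-like cells. Across the 29 classes, which share libraries and background, the Pearson correlation of log2(CPM + 1) was 0.99 for Col3a1 and Col1a1, 0.98 for Col4a1 and Col4a2, 0.98 for Col6a1 and Col6a2, 0.94 for Col4a5 and Col4a6, 0.91 for Col4a3 and Col4a4 and 0.10 for Col8a1 and Col8a2. The median over all 435 pairs of the 30 genes was 0.574. The correlations are descriptions over these classes.

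**Figure D5:**
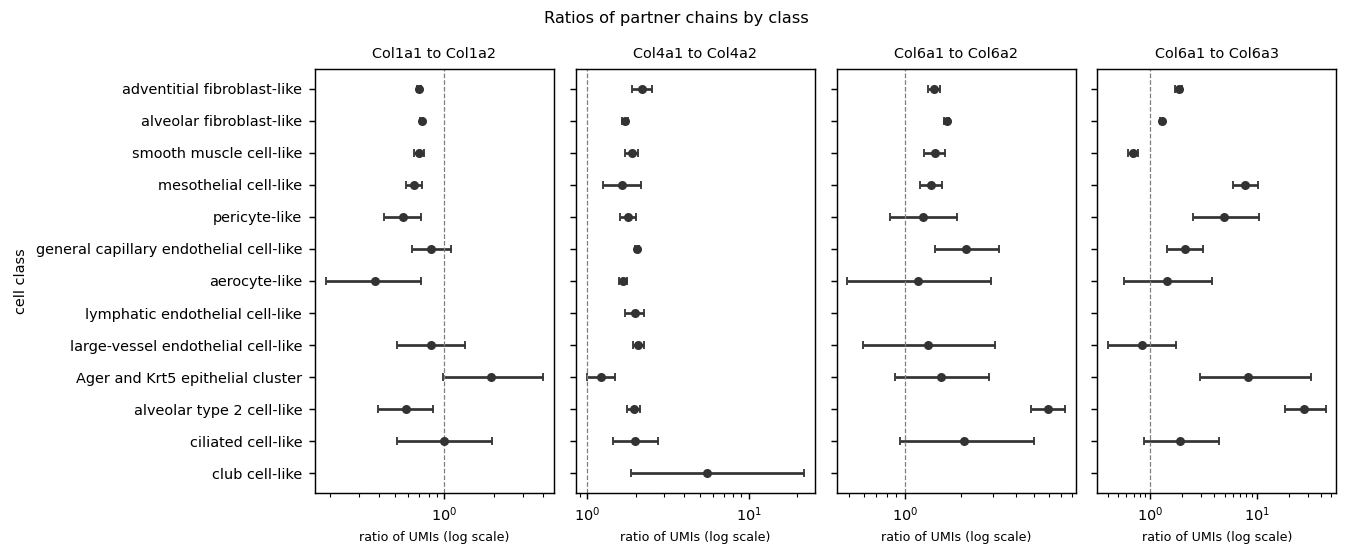
Ratio of the UMIs of 2 collagen chains (log scale) by non-immune class, with exact 95% intervals for counting error. A dashed line marks 1, and each class shown has at least 20 UMIs of the pair and at least 1 of each. Col1a1 to Col1a2 stays near 0.726 in the fibroblast and smooth muscle rows, Col4a1 to Col4a2 lies between 1.64 and 2.19 apart from the cluster marked by Ager and Krt5 and club cell-like cells, and the type VI ratios are highest in alveolar type 2-like cells.

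Genes that process, bind or accompany collagens were followed by the same compartment rule, which called 6.22% of all tested genes mesenchymal, 3.71% endothelial and 7.96% immune. Unlike the collagen genes, these companion genes were not kept out of the clustering. Their calls and levels by class are thus descriptions. Of the proteoglycans and other partners of fibrils, 6 of 6 were called mesenchymal, against that 6.22%. Sparc, a collagen-binding glycoprotein, was at 4588 CPM (95% interval 4553 to 4623) in alveolar fibroblast-like cells and at 998 CPM in endothelium. Bgn, a small proteoglycan, was at 3468 CPM (95% interval 3438 to 3499) in alveolar fibroblast-like cells. Dcn, which spaces fibrils, was highest in adventitial fibroblast-like cells at 11529 CPM (95% interval 11389 to 11669), with 496 CPM in alveolar fibroblast-like cells. Dcn was among the 10 leading genes of the adventitial cluster.

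Of the enzymes that trim propeptides and crosslink fibrils, 7 of 12 were called mesenchymal (against 6.22% of all genes) and 1 endothelial (Tll1, against 3.71%). Pcolce2, an enhancer of propeptide cleavage, was at 1876 CPM (95% interval 1854 to 1899) in alveolar fibroblast-like cells, and Loxl1, a crosslinking oxidase, at 754 CPM (95% interval 739.7 to 768) in the same class. Pcolce, the other enhancer of propeptide cleavage, was instead highest in adventitial fibroblast-like cells at 528 CPM (95% interval 498 to 558). Among 5 tested genes of activated fibroblasts 3 were called mesenchymal (against 6.22%), and the most abundant, Ltbp2 and Postn, were both highest in pericyte-like cells, at 913 CPM (95% interval 819.8 to 1014) and 2885 CPM (95% interval 2717 to 3060.1). Postn was among the 10 leading genes of the pericyte-like cluster.

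Of the folding and modifying machinery, 2 of 20 genes were called mesenchymal (P4ha3 and P3h3), a share near the 6.22% of all genes. Ppib, a prolyl isomerase, ranged from 301 CPM in immune to 545 CPM in mesenchymal cells. Colgalt1, a glycosyltransferase, was highest in alveolar macrophage-like cells at 468 CPM (95% interval 462 to 475). P4hb, a subunit of the prolyl hydroxylase, ranged from 173 CPM in endothelial to 245 CPM in mesenchymal cells. Serpinh1, the chaperone of collagen, had 1119 CPM in mesenchymal, 311 CPM in endothelial, 54.5 CPM in epithelial and 2.34 CPM in immune cells, below 4-fold over endothelium.

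Of 10 collagen receptors, 3 were called mesenchymal and 3 endothelial, against 6.22% and 3.71% of all genes. The endothelial calls included Gp6, at 0.876 CPM in endothelium and 51 UMIs in all. They also included Itga2, at 98.4 CPM in endothelium but highest in NK cell-like cells at 225 CPM. The 1 immune call (Lair1) was near the share of 7.96%. Itgb1, the shared integrin chain, was at 609 CPM in endothelial and 489 CPM in mesenchymal cells. Itga1, its collagen-binding partner, was called endothelial (1315 CPM) although its highest class was pericyte-like cells at 2919 CPM (95% interval 2750.3 to 3095). Lair1, an inhibitory receptor for collagen, was at 106 CPM in immune cells, and Ddr2, a receptor kinase for fibrillar collagen, at 234 CPM in mesenchymal cells.

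Of 13 basement-membrane partners, 4 were called mesenchymal (the laminin chains Lama2, Lama4, Lamb1 and Lamc1, against 6.22%) and 1 endothelial (Pxdn, which crosslinks type IV collagen, against 3.71%). Nid1, the linker of laminin to type IV collagen, was highest in adventitial fibroblast-like cells at 622 CPM (95% interval 590.0 to 655), as was Lamc1 at 308 CPM (95% interval 286 to 332). Lamb2, another laminin chain, was highest in smooth muscle cell-like cells at 294 CPM (95% interval 271 to 318).

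The members with few UMIs complete the family. With 20 to 99 UMIs stood Col9a3, Col24a1, Col6a6, Col26a1, Col6a5 and Col11a1, and of these Col24a1, Col6a6, Col6a5 and Col11a1 were called mesenchymal. Col6a5 had 15 of its 34 UMIs in mesothelial cell-like cells and Col26a1 had 25 of 42 in ciliated cell-like cells. Col10a1 (17 UMIs), Col6a4, Col22a1, Col19a1, Col25a1 and Col9a2 had 1 to 19 UMIs. Col2a1 and Col9a1, cartilage collagens, had 0 UMIs of 199782940, which allows a level of up to 0.0150 CPM. In the annotation 7 of the 44 genes share exon bases with another gene of the matrix, all on the opposite strand, between 14 and 234 bases, and among those with over 100 UMIs these were Col4a1, Col4a2 and Col15a1.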

How the data were processed

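Whole-lung cells were captured with a droplet 3′ kit (the labels and the study's supplement name different versions of it). What the authors deposited is a matrix of counted UMIs by gene and barcode (unit: counts), from Cell Ranger 3.1.0, which aligns with STAR, with reads down-sampled to even the libraries. The mm10 build is named in their processing notes with no role. The matrix numbers 7 libraries, and libraries 1, 2, 3 and 7 were used. Library numbers carry no group in the sources used here, so the matrix was treated as 1 sample and no test was run. For the same reason nothing can be said of the spread between mice.

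Barcodes with over 10% mitochondrial UMIs were dropped. Counts were scaled to 10000 per cell, and 2000 variable genes without the collagen genes gave 30 components, which were aligned between libraries by mutual nearest neighbours (20) and clustered with Leiden (leidenalg 0.10.2) at resolution 0.8. Clusters that were not immune were clustered again at 1.5. Names came from fixed marker lists. After the values were seen, 6 clusters in which at least 50% of cells carried defining genes of 2 or more compartments (Ptprc, Cdh5, Pdgfra or Pdgfrb, Krt8) were set aside, and the cluster named for alveolar type 1 markers was renamed for Ager and Krt5, since Krt15, Krt5 and Aqp3 were among its leading genes. Scrublet (scanpy 1.11.5) called 728 of 20856 barcodes, which were kept except as an alternative. It called 60.6% of the cells set aside. Intervals were exact Poisson or binomial at 95%, from scipy 1.17.1 with numpy 2.4.6 in Python 3.11.15. Members with at least 100 UMIs were named with values (at most 30), and 2 to 4 genes of each pathway list by their total UMIs. Itga2 and Gp6 were named besides, for their endothelial calls. Droplet 3′ libraries of this kind mark the strand of a read. The members, marker lists and gene lists were chosen with earlier results of these data known. The epithelial calls among the basement-membrane partners are not reported here. The statistics were tested on simulated data. The alternatives covered the cell filter, doublets, mitochondrial limit, alignment, genes and resolution of clustering, weights, thresholds, each library left out and the mixed clusters kept (the last chosen after seeing the data).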

Additional observations from a re-analysis of the deposited data

Results flagged for a closer look

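Libraries 4, 5 and 6 of the matrix entered no comparison above, and each held collagen UMIs above the level that 3 counts would give. Collagen genes stood at 5.03 CPM in library 4 (95% interval 4.26 to 5.91, 149 UMIs in 2992 cells), at 7.06 CPM in library 5 (6.17 to 8.05, 225 UMIs in 4888 cells) and at 9.43 CPM in library 6 (8.37 to 10.6, 286 UMIs in 4882 cells). The limits for 3 counts were 0.101, 0.0942 and 0.0989 CPM. All 3 libraries lay far below the 560 CPM of library 7, the lowest of the libraries used. The gene with the most UMIs was Col4a1 in library 4 (30 UMIs) and Col27a1 in libraries 5 and 6 (54 and 84 UMIs). The labels give no group for these libraries. Which cells they hold was not examined here, so their levels are not read as low collagen in lung.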

How the results depend on the processing

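No paired analysis was possible because the library numbers carry no group or replicate and no test was run. Of 405 recomputed log2 ratios of a gene's leading class to the next, over 30 genes and 14 settings, 393 kept their direction and 12 turned. Col6a3 (alveolar to adventitial fibroblast-like) turned to -0.11 with cells kept within 2 standard deviations of UMIs and genes, -0.13 without alignment, -0.14 with collagen genes in the clustering and -0.11 at resolution 3. Col28a1, over the same classes, turned to -1.67, -1.91, -1.81 and -1.81 under these 4. Col4a6 (smooth muscle to adventitial) turned to -0.43 at a mitochondrial limit of 5% and to -0.26 with libraries weighted equally. Col12a1 (smooth muscle to alveolar fibroblast-like) turned to -0.23 with libraries weighted equally, and ranged from -1.38 without library 2 to 1.16 without library 3.

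Of the counts per compartment, the mesenchymal 22 stayed between 18 and 25. The epithelial count of 1 became 2 under the 2 standard deviation filter, 3 with equal weight of libraries, 3 with equal weight of cells and 4 at a 2-fold call. It ranged from 1 to 3 with 1 library left out (3 without library 2 and 2 without library 3). The endothelial count of 0 became 2 at a 2-fold call. The immune count of 1 ranged from 0 to 1 (0 without library 3). Between libraries, the general capillary count of 0 became 1 at a mitochondrial limit of 5% and 2 at 1.5-fold, and the alveolar fibroblast count of 1 became 3 at 1.5-fold. With 1 library left out, Col1a1 to Col1a2 in alveolar fibroblast-like cells ranged from 0.716 to 0.780, Col6a1 to Col6a2 there from 1.48 to 1.75, and Col4a1 to Col4a2 in general capillary cells from 1.91 to 2.18. The cause of these changes was not tested. Depth limited classes under 20 cells in a library, which gave no value there, and members under 20 UMIs.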
